A study of Mus musculus with 12 samples.

Results

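The cytosolic ribosomal protein genes were taken as every row of the raw count table whose Ensembl identifier belongs, in the GRCm38 annotation, to a protein-coding gene with an Rps or Rpl symbol and a number, with an a or x at most behind it, together with Rplp0, Rplp1, Rplp2 and Rpsa. This gave 76 of 49315 genes, 30 of the small subunit and 46 of the large subunit, and the rule used gene symbols and biotype, not levels. The table held T cells from the spleens of male mice that entered the infusion at 12 weeks of age. The cells were enriched by magnetic removal of the other cell types, with 1 library per mouse and 3 mice in each of 4 groups. Wild-type (WT) C57BL/6 mice and miR-214-/- mice, which lack the microRNA in all tissues, each received osmotic minipumps for 14 days that delivered either the buffer alone (sham) or angiotensin II (Ang II, the peptide used to raise blood pressure) at 490 ng/kg/day. The genetic background of the miR-214-/- mice used for these libraries is not given in the sources used here. The question was how T cells of either genotype respond to Ang II. The polyA libraries gave no count for Mir214 itself in any of the 12 libraries, so the deletion could not be checked from them.

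A ribosome is built from ribosomal RNA and a fixed set of proteins, with the small subunit reading the message and the large subunit joining amino acids. The genes for these proteins sit apart from each other in the genome, yet their messages are among the most abundant in the cell and are made in near balance. Most of those messages begin with a 5′ terminal oligopyrimidine (TOP) tract, a run of C and T letters at the start of transcription through which the mTOR kinase and the RNA-binding protein Larp1 control their stability and translation. T cells raise ribosome production when they leave the resting state.

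The 76 genes lay on 19 chromosomes, with 14 of them on chromosome 7 and 4 on the X chromosome (Rps4x, Rpl10, Rpl36a and Rpl39). A 300-base promoter from RefSeq (GRCm38.p6, 250 bases before to 50 after the annotated start) was found for 56 of them. A run of at least 6 C or T letters touched the 5 bases on either side of the start in 26 of the 56 (46.4%), against 20.6% of the 16448 promoters in the table. The letters CCGGAA, the core bound by ETS factors, were present on either strand in 51.8% of the 56 and in 20.0% of all, whereas TATAAA was present in 8.93% and 12.9%. GGGCGG, the GC box, was found in 58.9% and 48.6%, and AAGATGG, the core bound by YY1, in 14.3% and 6.46%. These letter matches are a description of the annotated windows and were not tested as sites.

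The start windows are shown because a C and T run near the start stood at genes that fell with Ang II in WT cells and at genes that did not. Of the windows with such a run and with a RefSeq start within 50 bases of the GENCODE start, the 4 with the smallest p in WT come first and the 4 with the largest p follow. Each window holds 30 bases on the gene's own strand, 5′ to 3′, and the capitals mark the run. The runs of Rpl13a (14 letters) and Rpl34 (20 letters) go past the window's edge and are printed in part. The runs also differ in place. That of Rpl6 ends 4 bases before the start, those of Rpl13a and Rps2 begin 2 and 4 bases after it, and the others span it. In genome coordinates Rps27 lies at chr3:90213634-90213663 (minus strand), Rpl38 at chr11:114668565-114668594 (plus), Rpl13a at chr7:45128731-45128760 (minus) and Rps21 at chr2:180257364-180257393 (plus). Rpl6 lies at chr5:121204486-121204515 (plus), Rps2 at chr17:24720048-24720077 (plus), Rpl34 at chr3:130730323-130730352 (minus) and Rpl7a at chr2:26910792-26910821 (plus).
Rps27: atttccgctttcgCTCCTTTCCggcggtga
Rpl38: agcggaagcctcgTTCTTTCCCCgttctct
Rpl13a: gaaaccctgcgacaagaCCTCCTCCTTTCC
Rps21: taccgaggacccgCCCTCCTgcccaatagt
Rpl6: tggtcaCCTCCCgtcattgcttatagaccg
Rps2: aggcagtcgagatctcgcgCTTCTTggagc
Rpl34: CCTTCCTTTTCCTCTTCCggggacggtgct
Rpl7a: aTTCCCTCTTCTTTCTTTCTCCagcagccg
Over all 56 windows the run was present in 9 of the 22 genes that fell in WT cells and in 17 of the other 34.

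As background for the genotype, the 7-letter match to bases 2 to 8 of miR-214-3p, CCTGCTG, was present in the annotated 3′ untranslated region of 4 of the 76 genes (5.26%). Across 20545 genes with such a region it was present in 17.8%. The untranslated regions of the ribosomal protein genes were short, with a median of 79 bases against 834 bases over all genes, and the share was not corrected for that length.

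Libraries held 21126874 to 29605988 counts, and each ribosomal protein gene had between 1756 and 101801 counts in every library, so that all 76 passed the filter on low counts in every comparison. In CPM, the counts of a gene per 1e6 counts of its library after scaling by the trimmed mean of M-values, the mean level over the 12 libraries ran from 98.8 for Rpl29 to 2649 for Rplp0, with a median of 876. Per kilobase of coding sequence the levels differed 37.0-fold. Rpl41, a very short basic protein of the large subunit, was highest with 7567 CPM per kilobase, followed by Rplp1 with 4549 and Rps29, a zinc-binding protein of the small subunit, with 4226. Rpl29, a surface protein of the large subunit, was lowest with 205 CPM per kilobase, followed by Rpl24 with 288 and Rpl15 with 705. Most genes sat near each other, since the middle 50% lay between 1499 and 2409 CPM per kilobase. The authors counted uniquely placed reads only, and 58 of the genes have named pseudogenes among the other rows (277 in all), so the split of reads between a gene and its copies is uncertain. Rows of pseudogenes with ribosomal protein symbols held 0.475% to 1.01% as many counts as the 76 genes.

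The 76 genes took 6.35% to 10.3% of all counts in a library. In WT sham T cells the share was 7.70%, 7.42% and 8.32% in the 3 mice, with a mean of 7.82% ± 0.461 (SD, n = 3). In WT Ang II T cells it was 6.35%, 6.94% and 6.39%, with a mean of 6.56% ± 0.331 (SD, n = 3). Every WT Ang II library was therefore below every WT sham library. In miR-214-/- sham T cells the share was 8.26%, 6.80% and 6.62% (7.23% ± 0.901, SD, n = 3), and in miR-214-/- Ang II T cells it was 7.61%, 10.3% and 6.71% (8.20% ± 1.85, SD, n = 3). The miR-214-/- groups overlapped, and replicate 2 of miR-214-/- Ang II stood above all others. Without it the mean of that group was 7.16%. That library was the highest of the 12 for 75 of the 76 genes, the exception being Rplp2, which was highest in WT sham replicate 3.

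**Figure D1:**
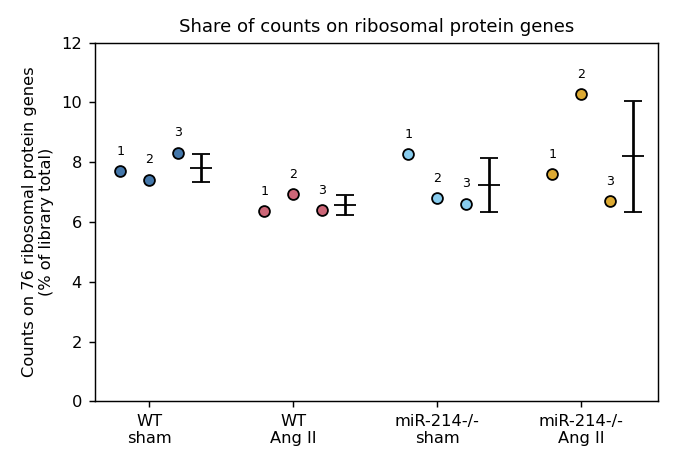
Counts on the 76 ribosomal protein genes as a percent of each library's total, by group. Points are mice with their replicate number, the bar is the mean and the whiskers are 1 SD. The 3 WT Ang II libraries lie between 6.35% and 6.94%, below the 3 WT sham libraries, while 1 miR-214-/- Ang II library reaches 10.3%.

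In WT T cells Ang II was accompanied by lower levels of ribosomal protein messages, each by a modest amount. With edgeR's quasi-likelihood test and Benjamini-Hochberg adjustment over 16012 genes, 29 of the 76 fell at an adjusted p under 0.05 and 0 rose. The changes of the 29 ran from a log2 fold change of -0.67 to -0.31. The fitted change was negative for 74 of the 76, with a median log2 fold change of -0.30, against -0.02 over all genes tested. Both subunits took part, with 15 of 30 small-subunit genes (median -0.33) and 14 of 46 large-subunit genes (median -0.27) past the test. Every Ang II library was below every sham library for 61 of the 76, whereas no gene had the opposite order.

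Over all genes tested 7.06% were lower and 11.7% were higher at the same threshold, and 22.0% had every Ang II library below every sham library. None of the 76 also passed an absolute log2 fold change of 1, which 7.30% of all genes did. The background was higher among abundant genes. Of the 389 other protein-coding genes at or above the level of all but 4 of the ribosomal protein genes (a log2 CPM of 8.45), 34.2% were lower and their median log2 fold change was -0.21. The 38.2% of ribosomal protein genes that fell is thus near the share among genes of like abundance and is not a result particular to them. Of those 389 other genes 292 had a negative estimate. The share with every Ang II library below every sham library was not computed for the 389.

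The 4 genes with the smallest p all stood clear of the spread between mice. Rps27, a zinc-finger protein of the small subunit, was at 1012, 1075 and 1153 CPM in WT sham and at 646, 782 and 583 CPM in WT Ang II. The groups did not overlap, and the log2 fold change was -0.67 (SE 0.11, adjusted p = 0.0114). Rpl38, a large-subunit protein known for its part in translating homeobox messages, was at 309, 320 and 338 CPM in sham and 224, 262 and 215 CPM in Ang II. Its groups were again apart, with a log2 fold change of -0.44 (SE 0.08, adjusted p = 0.0144). Rpl13a, a large-subunit protein that interferon signaling can release as a translational repressor, was at 987, 922 and 1105 CPM in sham and 674, 720 and 731 CPM in Ang II. All 3 Ang II values were below the lowest sham value, and the log2 fold change was -0.48 (SE 0.09, adjusted p = 0.0154). Rps24, which acts in ribosomal RNA processing and is mutated in some patients with Diamond-Blackfan anemia, was at 1597, 1601 and 1721 CPM in sham and 1125, 1285 and 1119 CPM in Ang II. Here too the groups did not overlap, with a log2 fold change of -0.46 (SE 0.09, adjusted p = 0.0159).

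A few genes had small estimates in WT cells, and whether they differ from the other members was not tested. Rps2, which lines the entry of the message channel, was at 1173, 1251 and 1512 CPM in sham and 1228, 1489 and 1298 CPM in Ang II, with a log2 fold change of 0.05 (SE 0.12, adjusted p = 0.795). Rpl15, a core protein of the large subunit, was at 352, 507 and 363 CPM in sham and 374, 491 and 351 CPM in Ang II, with a log2 fold change of 0.01 (SE 0.18, adjusted p = 0.970). The values of both groups were intermixed for these genes, which were the only 2 of the 76 with a positive estimate (3 were positive with library size scaling and 1 in a fit over all 12 libraries). Rpl3, which shapes the center where peptide bonds form, was at 1037, 899 and 1169 CPM in sham and 943, 1010 and 958 CPM in Ang II (log2 fold change -0.07, SE 0.11, adjusted p = 0.671). Rpl34 varied widely among mice of the same group, from 308 to 471 CPM in sham and from 230 to 413 CPM in Ang II, and its log2 fold change of -0.09 had an SE of 0.25.

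**Figure D2:**
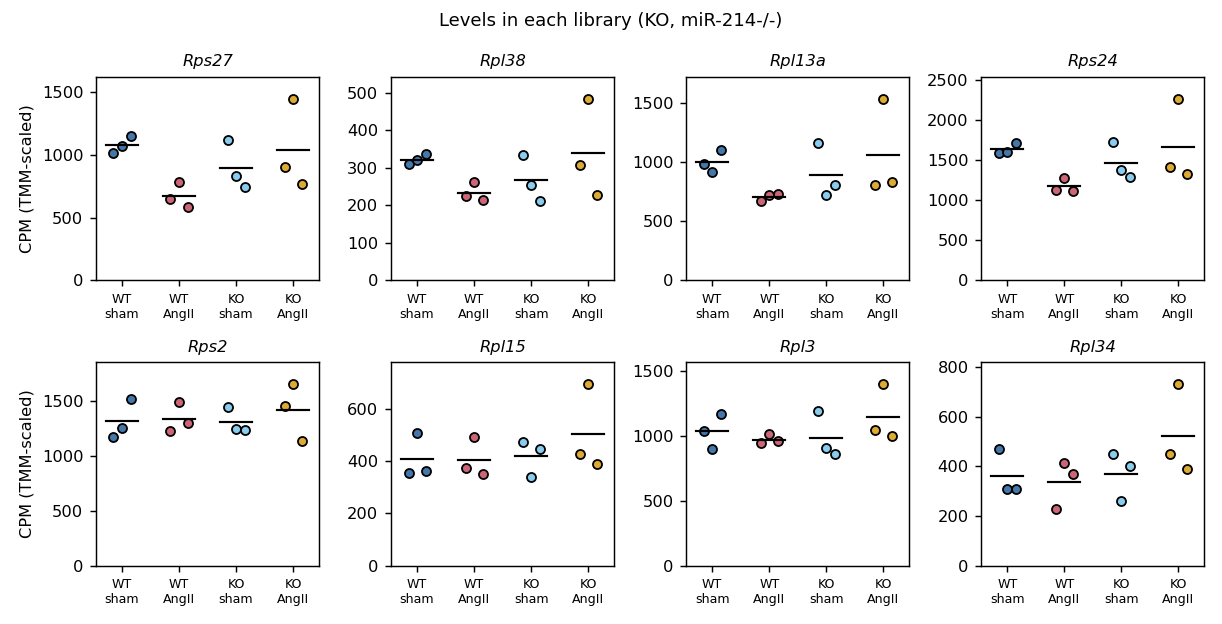
Scaled CPM of 8 ribosomal protein genes in each library, with 3 mice per group and the group mean as a line (KO is miR-214-/-; each axis starts at 0). In the top row the WT Ang II points lie below the WT sham points, in the bottom row they overlap, and 1 miR-214-/- Ang II library is high in all 8 panels.

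The stalk of the large subunit, the lateral arm that recruits translation factors, is made of Rplp0, Rplp1 and Rplp2. Rplp1 fell from 1593, 1656 and 1941 CPM in WT sham to 1232, 1375 and 1198 CPM in WT Ang II (log2 fold change -0.43, SE 0.10, adjusted p = 0.0328). Rplp2 had a like estimate of -0.41 (SE 0.13) that missed the threshold (adjusted p = 0.0601), and Rplp0 had -0.20 (SE 0.10, adjusted p = 0.207). For all 3 stalk genes the WT Ang II libraries were below the sham libraries. Rpl5 and Rpl11 enter the large subunit together with the smallest ribosomal RNA and, when free, bind Mdm2 and stabilize p53. Rpl5 was at 1987, 1865 and 2296 CPM in sham and 1546, 1610 and 1526 CPM in Ang II and fell (log2 fold change -0.37, SE 0.10, adjusted p = 0.0456). Its partner Rpl11 had a log2 fold change of -0.25 (SE 0.10, adjusted p = 0.116), and the difference between the partners was not tested.

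Among small-subunit proteins with known roles outside routine translation or in disease, Rps19, the gene most often mutated in Diamond-Blackfan anemia, fell with a log2 fold change of -0.48 (SE 0.13, adjusted p = 0.0382). Its levels were 846, 848 and 1129 CPM in sham and 651, 709 and 626 CPM in Ang II. Rps26, mutated in the same anemia, gave -0.10 (SE 0.07, adjusted p = 0.385). Rps6, whose protein is the target of the S6 kinases downstream of mTOR, gave -0.25 (SE 0.09, adjusted p = 0.101), and Rpsa, also known as the laminin receptor, gave -0.30 (SE 0.11, adjusted p = 0.101). Rps27a, made as a fusion with ubiquitin, gave -0.21 (SE 0.08, adjusted p = 0.116), and the X-linked Rps4x gave -0.26 (SE 0.10, adjusted p = 0.102). For Rps6, Rpsa, Rps27a and Rps4x all WT Ang II values were nevertheless below all WT sham values.

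Of the other large-subunit genes chosen for their roles, Rpl39, a short protein of the nascent chain exit tunnel, fell with a log2 fold change of -0.35 (SE 0.10, adjusted p = 0.0450). Rpl10, one of the last proteins to join the large subunit and a gene mutated in T cell leukemia, gave -0.10 (SE 0.09, adjusted p = 0.446). Rpl22, whose loss in mice blocks the development of αβ T cells, gave -0.15 (SE 0.08, adjusted p = 0.220). Rpl22l1, the paralog of Rpl22 that lies outside the set, gave the same log2 fold change of -0.15 (SE 0.09, adjusted p = 0.271). Of the 3 genes with the highest levels per kilobase, Rplp1 and Rps29 fell (log2 fold changes of -0.43 and -0.56), while Rpl41 gave -0.15 and did not pass. Of the 3 lowest, Rpl29 gave -0.23, Rpl24 -0.06 and Rpl15 0.01, none past the test.

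The calls rested on a small margin. The largest adjusted p among the 29 was 0.0498 and the smallest among the other 47 was 0.0508. When each of the 6 WT libraries was left out in turn, 0 to 12 of the 76 fell, with 0 when WT Ang II replicate 3 was left out (35 at an unadjusted p under 0.05), 12 without WT Ang II replicate 2 and 8 without WT Ang II replicate 1. Without WT sham replicate 1, 2 or 3 the count was 7, 10 or 4. One fit over all 12 libraries, which shares 1 estimate of the spread with the miR-214-/- groups, called 0 (10 at an unadjusted p under 0.05). DESeq2 called 42. Of all genes tested, in either direction, the main fit called 3009 of 16012 and the one fit 3359 of 16770. DESeq2 called 3740 of the 28524 genes with any count. These were not filtered as for edgeR, so its share cannot be set beside the others. The leave-one-out fits called from 946 genes in all, without WT Ang II replicate 3, to 3590, without WT Ang II replicate 1. All 29 were negative in each of the 6 leave-one-out fits. They were picked as lower in these same libraries, so their sign there is no separate support. The median over the 76 stayed between -0.36 and -0.23.

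Levels of other cell types moved with the same contrast. The 10 T cell markers had a median log2 fold change of -0.55 in WT, with 7 lower at an adjusted p under 0.05, and their summed level was 4341 to 5241 CPM in sham and 2840 to 3620 CPM in Ang II. All 8 neutrophil markers rose (194 to 245 CPM summed in sham, 1074 to 3243 CPM in Ang II), and so did 4 of 9 tested red-cell precursor markers (308 to 510 CPM and 956 to 5580 CPM) and 2 of 4 megakaryocyte markers. None of the 5 B cell markers or 6 macrophage markers passed the test. All 10 proliferation genes rose, with a median log2 fold change of 2.16. No marker of these lists was at 0 in any library. The part of cell composition in the ribosomal protein result was not tested, and in bulk samples fewer cells of a type and less RNA per cell cannot be told apart.

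The remainder of the translation machinery gave few calls in WT cells. Of 78 mitochondrial ribosomal protein genes, 4 rose and 0 fell (median log2 fold change 0.17). Of 25 ribosome assembly factors 0 passed the test with edgeR (2 at an unadjusted p under 0.05, median 0.16), and of 11 genes for RNA polymerase I and its cofactors only Taf1a fell (median 0.05). Of 26 initiation factor genes 2 rose and 0 fell (median 0.10), these being Eif3l and Eif4h, and of 8 elongation and termination factor genes only Eif5a rose (median 0.02). The 15 other messages known to carry a TOP tract had a median of 0.00. Among them Tpt1, a very abundant growth-related message, fell with a log2 fold change of -0.48 (adjusted p = 0.0225), while Nap1l1, a histone chaperone, rose with 0.36 (adjusted p = 0.0166). The elongation factors Eef1a1 (-0.14) and Eef2 (-0.12) did not pass the test. Of 16 genes that control ribosomal protein synthesis, 2 rose (Eif4ebp1 and Mxd1) and 2 fell (Mnt and Tsc1), while Mtor, Larp1 and Myc did not pass the test with log2 fold changes of -0.01, 0.14 and 0.13. Over all genes tested 11.7% were higher and 7.06% lower at the same threshold. Genes named here for having passed were picked after their values were seen.

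The symbols of the set leave out some ribosomal proteins, of which 3 are given here. Rps3a1 had a log2 fold change of -0.40 (SE 0.18, adjusted p = 0.157), Fau -0.45 (SE 0.14, adjusted p = 0.0582) and Rack1, the scaffold protein bound to the small subunit, -0.19 (SE 0.10, adjusted p = 0.210). Each of them had every WT Ang II library below every sham library, and none passed the test. In contrast, Rps27l, the p53-responsive paralog of Rps27, rose from a mean of 27.0 CPM in sham to 51.2 CPM in Ang II (log2 fold change 0.95, SE 0.14, adjusted p = 0.00715). Rpl7l1, a paralog of Rpl7, rose with 0.27 (adjusted p = 0.0497), and the other 4 paralogs tested did not pass.

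**Figure D3:**
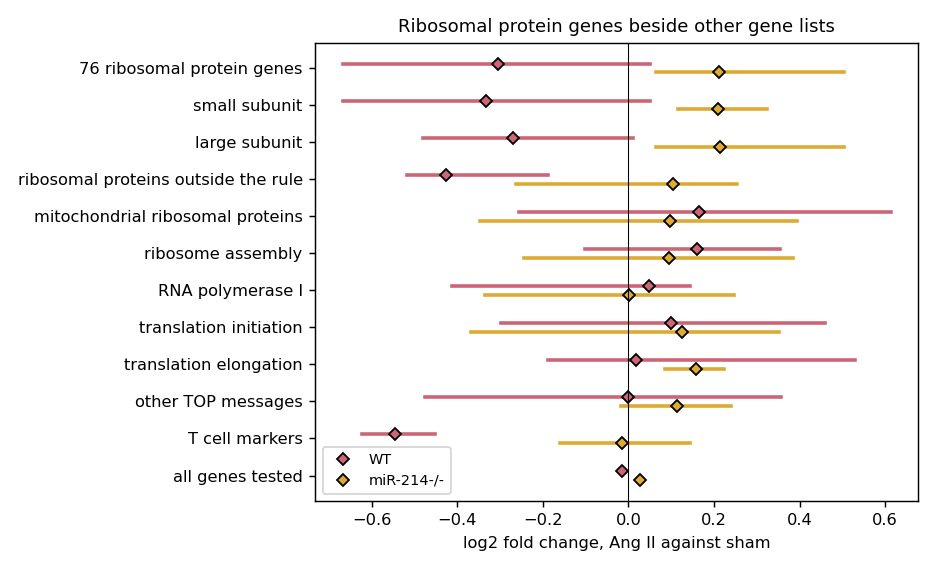
Median log2 fold change (diamond) and lowest to highest gene (line) of Ang II relative to sham, with WT and miR-214-/- T cells side by side, for the ribosomal protein genes and other gene lists (for all genes tested the median alone). In WT the ribosomal protein genes have a median of -0.30 and mitochondrial ribosomal proteins one of 0.17.

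The size of the WT change varied with the length of the gene. Over the 76 genes the log2 fold change and the coding length had a Spearman rho of 0.39, meaning that shorter genes had more negative values, whereas over 12781 other protein-coding genes rho was -0.07. These points share the same 6 libraries, and the relation is given as a description. Of the 24 genes with a coding length under 400 bases 13 fell (median log2 fold change -0.35), and of the 52 longer genes 16 fell (median -0.29). The short genes included Rps27, Rps21 (-0.61), Rps29 (-0.56) and Rps28 (-0.53), which had the 4 most negative estimates of all. With the length of the whole transcript in place of the coding length rho was 0.23. Per library, the mean log2 CPM of the short genes minus that of the longer genes was -0.65 to -0.74 in WT sham and -0.70 to -0.83 in WT Ang II, so the groups overlapped on this measure. Among the other protein-coding genes of like abundance in WT, the 9 with a coding length under 400 bases had a median log2 fold change of -0.26. The 380 longer ones had -0.21, so the relation is not shown to be particular to the 76. No cause of it was tested.

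**Figure D4:**
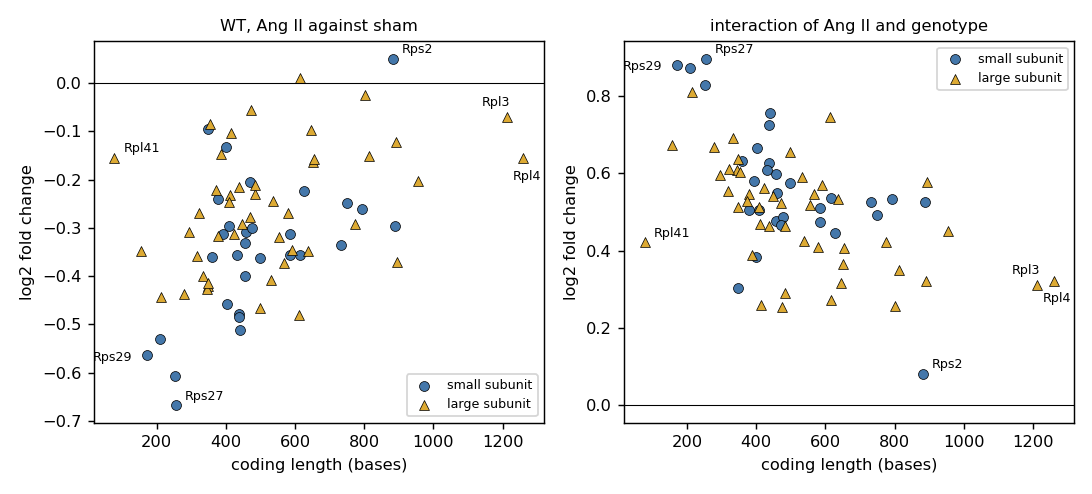
Log2 fold change of each of the 76 genes against its coding length in bases, for Ang II against sham in WT (left) and for the interaction (right). Circles are small-subunit and triangles large-subunit genes, and the short genes Rps27 and Rps29 lie at the far end of both panels.

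In miR-214-/- T cells no ribosomal protein gene passed the test for Ang II against sham. With edgeR 0 of the 76 were called and 0 were at an unadjusted p under 0.05, while of all 15937 genes tested 0% were called and 12.2% were at an unadjusted p under 0.05. DESeq2 called 0 of the 76 and 277 genes in all. The fitted change was positive for all 76, with a median log2 fold change of 0.21 (0.03 over all genes tested) and a range of 0.06 to 0.50. None of the 76 had groups that did not overlap, which 19.3% of all genes had. The smallest unadjusted p was that of Rpl34, at 449, 262 and 400 CPM in sham and 450, 730 and 389 CPM in Ang II (log2 fold change 0.50, SE 0.29, adjusted p = 0.509). Rps27 was at 1120, 832 and 746 CPM in sham and at 904, 1447 and 765 CPM in Ang II, which is a log2 fold change of 0.21 with an SE of 0.27. The single high value in each of these Ang II groups belonged to replicate 2.

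The positive direction in miR-214-/- cells rested on that library. Leaving it out gave a median of -0.05, and 66 of the 76 estimates were negative. It also had the highest marker sums of its group, with 358 CPM for B cell markers against 72.0 and 44.9 in the other mice. Red-cell precursor markers summed to 4592 CPM against 563 and 560.3, and T cell markers to 4616 CPM against 3280 and 4434. WT Ang II replicate 1 had 5580 CPM for red-cell precursor markers and a ribosomal protein share of 6.35%. The T cell markers of the genotype had a median log2 fold change of -0.01 between Ang II and sham, with 0 of 10 past the test. The part of other cells in the level of this library was not tested.

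**Figure D5:**
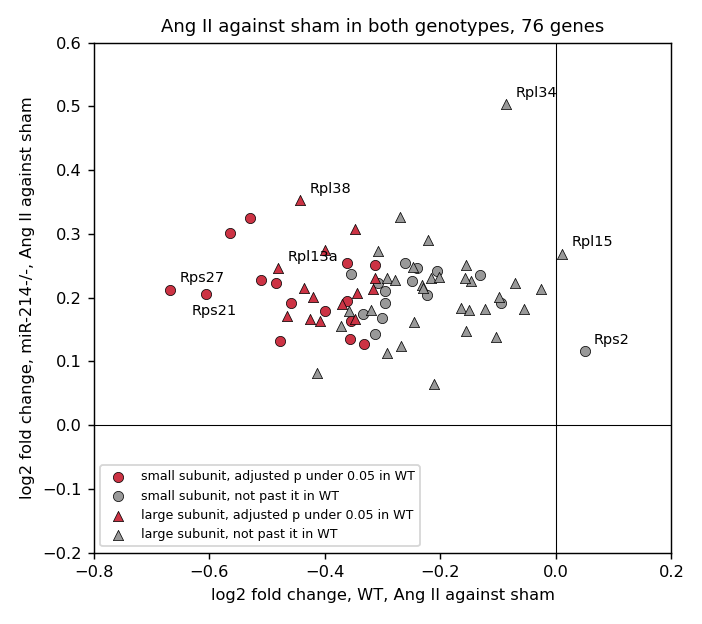
Log2 fold change for Ang II against sham of each ribosomal protein gene in WT (horizontal) and miR-214-/- (vertical) T cells. Circles are small-subunit and triangles large-subunit genes, red marks the 29 with an adjusted p under 0.05 in WT, and all 76 lie above 0 on the vertical axis, a position that rests on 1 library.

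Between genotypes in sham-infused mice no ribosomal protein gene differed at the threshold. The median log2 fold change of miR-214-/- against WT was -0.15, with 74 of 76 negative and a range of -0.35 (Rps28) to 0.04 (Rpl15). With edgeR 0 of the 76 passed (0 at an unadjusted p under 0.05), and of all 15913 genes 0.0251% passed and 6.67% were at an unadjusted p under 0.05. DESeq2 called 0 of the 76 (3 at an unadjusted p under 0.05) and 94 genes in all. The smallest unadjusted p was that of Rps21, at 550, 595 and 718 CPM in WT sham and 593, 485 and 414 CPM in miR-214-/- sham, with a log2 fold change of -0.32 (SE 0.15, adjusted p = 0.779). The smallest in the other direction was that of Rpl15 (log2 fold change 0.04, SE 0.17). All 76 overlapped between these groups, and 10.2% of all genes did not. The rho with coding length was 0.58 here, so in this comparison too the shorter genes had the more negative values. Among the other genes of like abundance, the 9 with a coding length under 400 bases had a median of -0.08 and the 370 longer ones -0.05. Leaving out miR-214-/- sham replicate 1, which had the highest share of its group, moved the median to -0.28 and put 40 of the 76 at an unadjusted p under 0.05, with 0 past the adjusted threshold. Of all 16279 genes in that fit 35 passed the adjusted threshold. The share of all genes at an unadjusted p under 0.05 was not computed for it, so the 40 are not read as a result about the 76.

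Between genotypes in Ang II-infused mice all 76 estimates were positive, with a median log2 fold change of 0.39 (0.00 over all genes tested) and a range of 0.08 (Rps2) to 0.64 (Rpl34). With edgeR 0 of the 76 were called and 1 was at an unadjusted p under 0.05, while of all 16215 genes tested 0% were called and 8.56% were at an unadjusted p under 0.05. That 1 became 19 without miR-214-/- Ang II replicate 1 and 43 without replicate 3. The share of all genes at that level was not computed for these fits, so the numbers are not read as a result about the 76. DESeq2 called 0 of the 76 and 33 genes in all. Every miR-214-/- library was above every WT library for 25 of the 76, against 8.02% of all genes. The smallest unadjusted p was that of Rps27, with 646, 782 and 583 CPM in WT and 904, 1447 and 765 CPM in miR-214-/- (log2 fold change 0.64, SE 0.25, adjusted p = 0.569). Its groups overlapped, since 765 CPM lay below the highest WT value. With replicate 2 of the miR-214-/- Ang II group left out, the median was 0.11.

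The difference between the genotypes in their response to Ang II was tested as an interaction over all 12 libraries. All 76 estimates were positive, with a median log2 difference of 0.53 (0.01 over all genes tested), and 46 exceeded 0.5. Other groups of genes moved in the same contrast. The 10 T cell markers were positive too, with a median of 0.54 and 7 at an unadjusted p under 0.05, and the 323 other protein-coding genes of like abundance had a median of 0.20. The 10 proliferation genes were negative, with a median of -1.56 and all 10 at an unadjusted p under 0.05, and none of either list passed the adjusted threshold. Their part in the ribosomal protein values was not tested. At an adjusted p under 0.05 edgeR called 0 of the 76 and 0.00596% of 16770 genes, and DESeq2 called 0 of the 76 and 444 genes in all. At an unadjusted p under 0.05 there were 15 of the 76, against 14.8% of all genes, which is near that background. This number was 59, 53 or 45 without miR-214-/- Ang II replicate 3, miR-214-/- sham replicate 1 or miR-214-/- Ang II replicate 1. It was 8 without WT sham replicate 2, 3 without WT Ang II replicate 1, and 1 without WT sham replicate 3, WT Ang II replicate 3, miR-214-/- sham replicate 2 or 3, or miR-214-/- Ang II replicate 2. Rps27 had the smallest p, with a log2 difference of 0.90 (SE 0.32, adjusted p = 0.257), and Rpl38 had 0.81 (SE 0.33, adjusted p = 0.303). Rps2 had the smallest difference, 0.08 (SE 0.22). The fall seen in WT was thus not shown to differ from the change in miR-214-/- cells for any single gene. With replicate 2 of the miR-214-/- Ang II group left out, the median was 0.26, with 74 of 76 still positive, and the rho with coding length over the 76 was -0.54 with all libraries. Among the other genes of like abundance, the 7 with a coding length under 400 bases had a median of 0.40 and the 316 longer ones 0.20.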

How the data were processed

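Per the labels and the study's methods, RNA from splenic T cells (magnetic negative selection) was made into polyA stranded libraries and read as paired ends. The authors trimmed the reads, aligned them to GRCm38 with STAR and counted unique exonic reads per gene with featureCounts (Subread 1.5.2). The deposited values were raw counts, with no normalization. The annotation release and strand setting are not given in the sources used here. Of 49315 identifiers 49056 matched GENCODE (GRCm38). Counts were tested with edgeR 4.0.16 in R 4.3.3 (filterByExpr, TMM, quasi-likelihood F test, Benjamini-Hochberg over all genes tested), with the 2 groups of a comparison in the fit, or all 4 for the interaction. An exact permutation test of 3 against 3 mice cannot go below p = 0.1 and was not used. CPM values were scaled over all 12 libraries. Coding length was that of the principal transcript. The fitting steps were tested on simulated data with independent genes and a fixed spread. That run checked the code and does not stand for the spread between these mice. DESeq2 1.42.0, other scalings and filters, a replicate block and leaving out each library were alternatives.

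Genes were named by rule: all members past the threshold in a comparison or, where over 8, the 4 with the smallest p in each direction, otherwise the member with the smallest unadjusted p in each direction, the 3 highest and lowest per kilobase, and a list chosen for known roles. The members and lists were chosen with earlier results of these data known. The limits of 400 bases and of abundance, and the windows printed, were chosen after the values were seen. Within each group 0 of 12 pairs of libraries were identical. Replicate numbers were not taken to pair the mice. Single values of some genes are not reported here.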

Additional observations from a re-analysis of the deposited data

How the results depend on the processing

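In WT the count of ribosomal protein genes that fell with Ang II was 29 and became 18 with RLE scaling, 17 with no filter, 7 with the replicate block and 0 in one fit over all libraries, and it ranged from 0 to 12 when 1 library was left out. It was 42 with DESeq2, 24 with library size scaling, 29 with TMM computed without these genes, 29 with at least 10 counts in every library and 33 with the adjusted deviance fit. The median stayed negative under each of these. Calls over all genes tested were 3009 in the main fit, 2884 with RLE scaling and 2861 with no filter. They were 2381 with the replicate block and 3359 in the one fit over all libraries. Same-numbered WT mice deviated from their group means with correlations of 0.20, 0.11 and -0.14, and miR-214-/- mice with -0.56, -0.23 and -0.37. These values gave no sign of a pairing by number but cannot exclude one, since deviations from a mean of 3 mice are not independent. The WT median was -0.30 under the block too, so a call lost there is no sign of a smaller change. The cause of the lower counts of ribosomal protein genes was not tested, and the leave-one-out fits also held fewer samples. The other comparisons called 0 of the 76 under every alternative run. Leaving out 1 library moved the median between -0.05 and 0.34 for miR-214-/- Ang II against sham, between -0.28 and -0.07 for miR-214-/- against WT in sham, between 0.11 and 0.52 in Ang II, and between 0.26 and 0.66 for the interaction, the lowest being without miR-214-/- Ang II replicate 2 in all but the sham comparison. The share of counts moved by less than 1 SD with the most abundant other genes or the red-cell precursor markers left out of the total. Leaving out 1 of 3 mice cannot move a mean by 1 SD of its group, so that check could not fail. Without replicate 2 the miR-214-/- Ang II mean was 7.16% in place of 8.20%, against 7.23% in miR-214-/- sham. Every member had at least 1756 counts per library, and each p-value rests on 3 mice per group.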
